A study of Mus musculus with 4 samples.

Results

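The let-7 family was described in splenic CD4+ T cells as 6 mature miRNAs, let-7a-5p, let-7b-5p, let-7c-5p, let-7e-5p, let-7f-5p and let-7g-5p, together with 22 mRNAs that the deposited tables pair with them. The miRNAs are all entries named let-7 or miR-98 among 114 miRNAs that the authors listed as at least 2-fold different between the strains, of which 45 were lower and 69 higher in MRL/lpr. The mRNAs are the genes that carry any of these names among 440 genes listed as higher in MRL/lpr and as predicted targets of lower miRNAs. All 6 members stood in the lower list, whose share of the listed miRNAs was 39.5%, and no miR-98 and no 3p arm was listed. The direction of every miRNA and mRNA was therefore fixed by the list it came from, and is not a result.

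B6 was a C57BL/6J mouse and MRL/lpr was an MRL/lpr-Tnfrsf6lpr mouse, a lupus model that carries the *lpr* mutation of the death receptor gene *Fas*. Both were female and 16 weeks old, and the labels name no treatment. CD4+ T cells were obtained from each spleen by magnetic depletion of the other cells, and the small RNA and the mRNA library of a strain carry the same mouse number. There was 1 library per strain and assay, although the series text speaks of more than 1 B6 mouse. Strain, *lpr* mutation, disease and the individual mouse cannot be told apart, and no replicate error exists, so values and folds are given without a test between strains. In such bulk samples, fewer cells of a type and less RNA per cell cannot be told apart either.

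The trimmed small RNA reads numbered 33634335 for B6 and 29971024 for MRL/lpr, and RPM scales the reads of a miRNA to 1000000 of these. Intervals of miRNA folds are exact 95% limits (Clopper-Pearson), and counting error is all they cover. The mRNA tables hold predicted targets only, and most genes of a T cell list were in neither table. Of 15 T cell genes, none was among the higher mRNAs, and *Lef1* (91.8 FPKM in B6 against 15.3 in MRL/lpr) and *Tcf7* (472.8 against 156.8) were among the 212 lower mRNAs. These values do not check the T cell label, which rests on the purification. Of the 652 mRNAs in both tables, 67.5% were higher in MRL/lpr, which is the share against which each count of listed genes below is to be read. A gene or miRNA outside the tables is not read as absent or unchanged.

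The let-7 miRNAs guide the silencing complex to mRNAs, mostly through sites in the 3′ untranslated region that pair with the seed near the 5′ end of the miRNA. Members of the family share this seed and so share most predicted targets. They are abundant in differentiated cells, LIN28 proteins block the maturation of their precursors, and among their best known targets are regulators of growth such as *Hmga2* and the *Igf2bp* genes. In mouse T cells, let-7 is known to be high in the naive state and to decline after stimulation of the antigen receptor.

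The mature sequences are shown because the shared seed is what ties the 6 miRNAs to 1 set of partner mRNAs, and because the members are so alike that reads could be exchanged between them. The sequences come from RefSeq (GRCm38.p6), are written 5′ to 3′, and carry the seed, bases 2 to 8, in capitals.
let-7a-5p: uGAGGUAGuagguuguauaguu
let-7f-5p: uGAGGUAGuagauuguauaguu
let-7c-5p: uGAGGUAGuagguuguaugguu
let-7b-5p: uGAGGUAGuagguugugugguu
let-7g-5p: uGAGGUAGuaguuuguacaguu
let-7e-5p: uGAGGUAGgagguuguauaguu

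All 6 sequences were 22 bases long and had the seed GAGGUAG. Counted from 1 at the 5′ end and with let-7a-5p as the reference, the differences were U9G in let-7e-5p, G12A in let-7f-5p, A19G in let-7c-5p, A17G and A19G in let-7b-5p, and G12U and U18C in let-7g-5p. Any pair of members differed at 1 to 4 positions, and none of these lay in the seed. RefSeq holds 11 mature mouse miRNAs with this seed, of which let-7d-5p, let-7i-5p, let-7k, miR-98-5p and miR-1961 were not in the lists.

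The 6 mature miRNAs are made from 9 annotated genes. let-7e-5p lies at chr17:17830366-17830387 on the plus strand, let-7b-5p at chr15:85707325-85707346 on the plus strand, and let-7g-5p at chr9:106178846-106178867 on the plus strand. let-7a-5p comes from both chr9:41536732-41536753 (plus) and chr13:48538239-48538260 (minus). let-7f-5p comes from both chr13:48537889-48537910 (minus) and chrX:151912353-151912374 (plus). let-7c-5p comes from both chr15:85706616-85706637 (plus) and chr16:77599672-77599693 (plus). Reads of let-7a-5p, let-7c-5p and let-7f-5p cannot be divided between their genes, since the mature sequences are the same.

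The 6 listed members summed to 910596 reads for B6 (27073 RPM) against 293663 for MRL/lpr (9798 RPM). This sum was 2.76-fold lower in MRL/lpr (95% interval 2.75 to 2.77, log2 fold -1.47). Each member was listed for a fold of at least 2, so the sum had to be at least 2-fold lower. Reads of unlisted members are not known, so sums and shares of the family, here and below, cover these 6 only. By the listing rule, any unlisted member had a fold below 2 or a summed count below 100, so the whole family may have fallen less. Of the authors' miRNA reads, these 6 held 15.0% (14.9 to 15.0, Clopper-Pearson) in B6 and 4.50% (4.49 to 4.52) in MRL/lpr. The miRNA totals were 18.1% (B6) and 21.8% (MRL/lpr) of the trimmed reads, so scaling to these totals gives a lower log2 fold, -1.73, for the family.

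let-7f-5p held most of the family's reads, with 638551 in B6 (18985 RPM) against 189569 in MRL/lpr (6325 RPM), and was 3.002-fold lower (interval 2.99 to 3.02). Its share of the family was 70.1% in B6 and 64.6% in MRL/lpr, and without it the log2 fold of the sum was -1.22. By RPM in B6 it ranked 2nd among the 45 lower miRNAs.

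let-7g-5p was counted 128494 times in B6 (3820.3 RPM) against 49107 times in MRL/lpr (1638 RPM), which is 2.33-fold lower (interval 2.31 to 2.36). let-7a-5p was counted 107294 times in B6 (3190.0 RPM) against 44031 times in MRL/lpr (1469 RPM), which is 2.17-fold lower (interval 2.15 to 2.20). These abundant members had the smallest folds of the 6, and their shares of the family were higher in MRL/lpr, at 16.7% against 14.1% for let-7g-5p and 15.0% against 11.8% for let-7a-5p.

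let-7c-5p was counted 30987 times in B6 (921 RPM) against 9292 times in MRL/lpr (310.0 RPM), which is 2.97-fold lower (interval 2.90 to 3.04). let-7b-5p was counted 4410 times in B6 (131 RPM) against 1595 times in MRL/lpr (53.2 RPM), which is 2.46-fold lower (interval 2.33 to 2.61). The interval of let-7c-5p overlapped that of let-7f-5p, whereas that of let-7b-5p lay below both and touched that of let-7g-5p, so counting error alone does not order let-7c-5p against let-7f-5p or let-7b-5p against let-7g-5p.

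At the deposited values, let-7e-5p stood apart from the other members. It was counted 860 times in B6 (25.6 RPM) against 69 times in MRL/lpr (2.30 RPM), which is 11.1-fold lower (interval 8.68 to 14.4), and its interval overlapped that of no other member. It was the 3rd most reduced of the 45 lower miRNAs, while let-7a-5p, which it differs from at 1 base, was the 39th. Per 100 reads of let-7a-5p there were 0.802 reads of let-7e-5p in B6 and 0.157 in MRL/lpr. How the authors' mapping treats reads with a mismatch is not given in the sources used here, and the part that reads exchanged between such close sequences have in the level of let-7e-5p was not tested.

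A fold of at least 4 was reached by 1 of the 6 members, let-7e-5p, and by 26.7% of the 45 lower miRNAs. The median fold was 2.72 over the 6 members and 2.69 over the 45 lower miRNAs. Apart from let-7e-5p, the members thus lay in the middle and lower part of the list, at ranks 17, 18, 31, 36 and 39 by size of the fall.

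**Figure D1:**
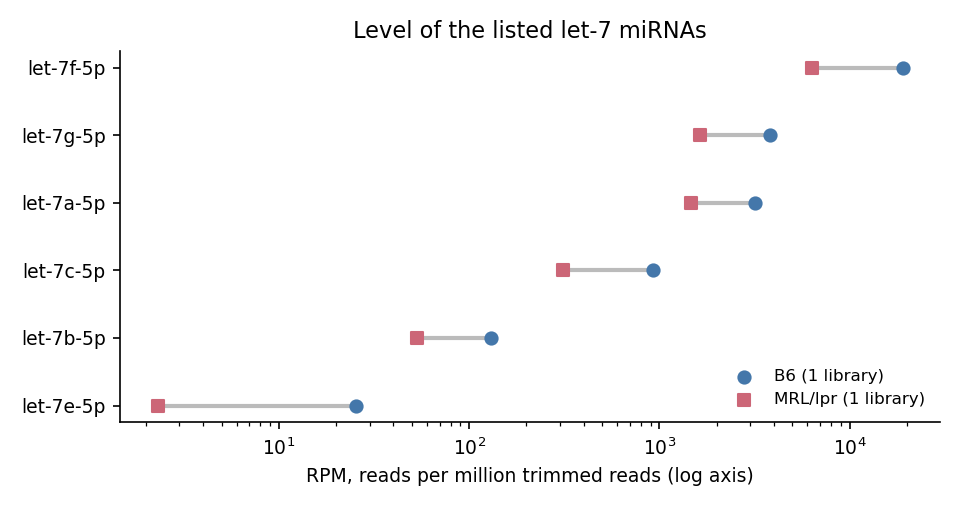
Level of each listed let-7 miRNA in RPM (log axis) in the B6 library (circles) and the MRL/lpr library (squares), with 1 library per strain and therefore no error bars. All 6 members were lower in MRL/lpr, as the list they come from requires, and the gap was widest for let-7e-5p, the member with the fewest reads (25.6 RPM in B6 and 2.30 in MRL/lpr).

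Some let-7 genes sit beside genes of the miR-99/100 and miR-125 families and are known to be made with them from 1 primary transcript. The listed neighbours are given for that reason, but no primary transcript was measured. On chromosome 17, the mature arms of *Mir99b* lie with *Mirlet7e* and *Mir125a* within 686 bases (chr17:17830194-17830879). Both listed neighbours of let-7e-5p were lower in MRL/lpr as well. miR-125a-5p was counted 1966 times in B6 (58.5 RPM) against 300 times in MRL/lpr (10.01 RPM), which is 5.84-fold lower (interval 5.17 to 6.62). miR-99b-5p was counted 2092 times in B6 (62.2 RPM) against 800 times in MRL/lpr (26.7 RPM), which is 2.33-fold lower (interval 2.15 to 2.53). The intervals of the 3 miRNAs of this cluster did not overlap, with let-7e-5p the most reduced.

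On chromosome 16, *Mir99a*, *Mirlet7c-1* and the mature arms of *Mir125b-2* lie within 47404 bases (chr16:77598936-77646339), and here the directions were opposite. miR-99a-5p was counted 45 times in B6 (1.34 RPM) against 197 times in MRL/lpr (6.57 RPM), which is 4.91-fold higher (interval 3.54 to 6.95). miR-125b-5p was counted 42 times in B6 (1.25 RPM) against 233 times in MRL/lpr (7.77 RPM), which is 6.23-fold higher (interval 4.47 to 8.87). Both neighbours were thus higher in MRL/lpr by several-fold, from few reads, while let-7c-5p with its 30987 and 9292 reads was lower. let-7c-5p is also made on chromosome 15 and miR-125b-5p also on chromosome 9, and the share of each gene in the reads was not measured. *Mirlet7a-2* on chromosome 9 lies between *Mir100* and *Mir125b-1*, so miR-125b-5p is a neighbour of that let-7 gene as well. miR-100-5p was not listed.

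**Figure D2:**
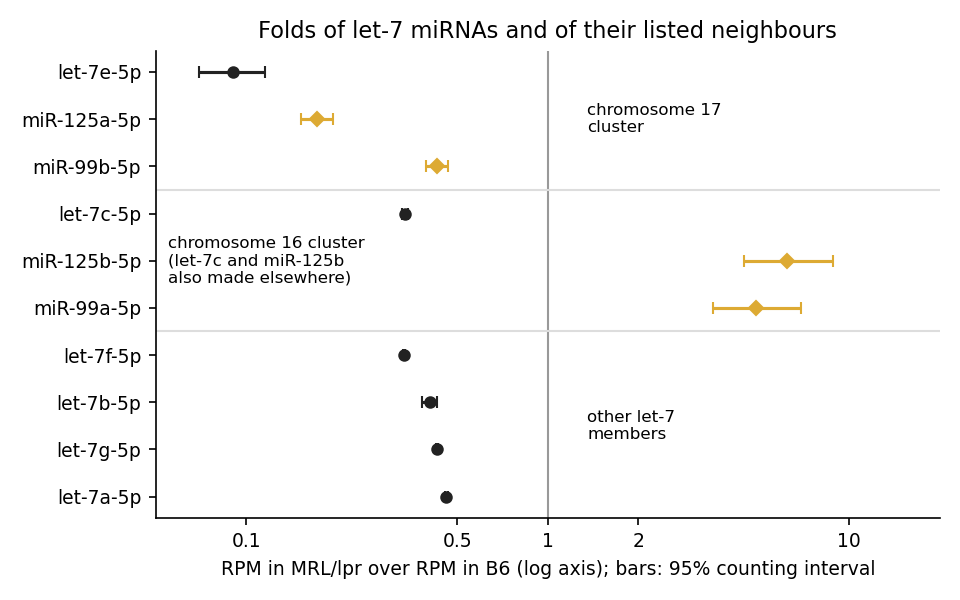
RPM in MRL/lpr over RPM in B6 (log axis) for the 6 let-7 miRNAs (black circles) and 4 listed neighbours (yellow diamonds), with 95% counting intervals and a line at equal levels. The chromosome 17 neighbours lay below 1 together with let-7e-5p, whereas the chromosome 16 neighbours miR-99a-5p (4.91-fold higher) and miR-125b-5p (6.23-fold higher) lay on the other side of the line from let-7c-5p.

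The 22 partner mRNAs made up 5% of the 440 higher mRNAs, and no lower mRNA was paired with the family. The lower mRNAs were paired with higher miRNAs only, so that absence follows from how the tables were made. Because the seed is shared, 19 of the 22 genes carried all 6 names. Among the others, *Igf2bp2* carried let-7b-5p and let-7g-5p only, and *Tmem2* lacked let-7b-5p. In all, 18 genes were paired with the let-7 family alone. The other 4 were also paired with a lower miRNA outside the family, for example with miR-200a-3p for *Col1a2*, miR-1964-3p for *Tlr5* and miR-466b-3p for *Treml4*. Each let-7 miRNA had 20 or 21 partners, against 43 for miR-125a-5p and 46 for miR-466d-3p, the highest number among the 28 lower miRNAs with any partner. The pairs are predictions, and no binding site was examined here.

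The values of the mRNA tables are read here as FPKM, fragments scaled to transcript length and library size. Among the partners, 12 of 22 (54.5%) were at least 4-fold higher in MRL/lpr, where 49.8% of all 440 higher mRNAs were. The median log2 fold was 2.14 (4.42-fold) over the partners and 1.99 (3.98-fold) over the 440 genes. The median level in MRL/lpr was 4.88 FPKM over the partners and 2.23 FPKM over the 440 genes, and 15 partners (68.2%) and 276 of all genes (62.7%) reached 1 FPKM there. The partners' share at 4-fold was thus near that of the whole table for the values as deposited. It was 45.5% against 30.2% with 0.1 FPKM added to each value, and 18.2% against 10% with 1 FPKM added, and these differences were not tested.

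Regulators of growth, the class for which let-7 is best known, were present at low level. *Hmga2*, an architectural chromatin protein of growing and embryonic cells, measured 0.0145 FPKM in B6 against 0.124 in MRL/lpr (8.55-fold). *Igf2bp2*, which binds mRNAs and affects their stability and translation, measured 0.328 FPKM in B6 against 0.684 in MRL/lpr (2.09-fold). Both stayed below 1 FPKM in both libraries.

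Genes of cell division and DNA maintenance included some of the larger folds among well detected partners. *Ccnf* encodes cyclin F, the substrate receptor of a ubiquitin ligase, and measured 1.16 FPKM in B6 against 9.58 in MRL/lpr (8.28-fold). *Dna2*, a nuclease and helicase of replication and break repair, measured 1.11 FPKM in B6 against 9.17 in MRL/lpr (8.24-fold). *Trip13*, an ATPase that remodels checkpoint proteins, measured 1.12 FPKM in B6 against 5.20 in MRL/lpr (4.63-fold). These 3 genes had nearly the same level in B6 and were all at least 4-fold higher in MRL/lpr. *Fignl2*, a fidgetin-like ATPase, was hardly detected, at 0.0144 FPKM in B6 against 0.0385 in MRL/lpr (2.67-fold). Other cell cycle genes stood in the table beside them. Of a list of 88, 13 were among the higher mRNAs and 0 among the lower, where 67.5% of all listed mRNAs were higher. The proliferation marker *Mki67* was among the 13, at 12.7 FPKM in B6 against 83.1 in MRL/lpr. Only *Ccnf* of these 13 was paired with let-7. The part of proliferating cells in the values of *Ccnf*, *Dna2* and *Trip13* was not tested.

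Of the cell death genes, *Lrdd* (*Pidd1* in RefSeq), a death domain protein that serves as a scaffold of a cell death complex, measured 2.27 FPKM in B6 against 6.50 in MRL/lpr (2.86-fold). It was paired with all 6 members and with no other lower miRNA.

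Receptors of innate recognition made up a further group. *Msr1*, the macrophage scavenger receptor, measured 0.0230 FPKM in B6 against 4.56 in MRL/lpr (198.6-fold), the 2nd largest fold of the 440 genes. *Treml4*, a TREM-like receptor of myeloid cells, measured 1.13 FPKM in B6 against 5.51 in MRL/lpr (4.88-fold). *Nod2*, an intracellular sensor of bacterial muramyl dipeptide, measured 0.791 FPKM in B6 against 2.31 in MRL/lpr (2.92-fold). *Tlr5*, the receptor of flagellin, measured 0.0675 FPKM in B6 against 0.216 in MRL/lpr (3.20-fold). *Msr1* went from barely detected to a level like that of *Treml4*, while *Tlr5* stayed below 1 FPKM in both libraries. *Crtam*, a surface molecule of activated T and NK cells, measured 4.30 FPKM in B6 against 11.3 in MRL/lpr (2.64-fold).

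Several of these receptors are typical of myeloid cells. Of a list of 28 myeloid genes, 7 were among the higher mRNAs, 0 among the lower and 21 in neither table. Without *Msr1*, the 6 others summed to 10.8 FPKM in B6 against 116.5 in MRL/lpr, a direction that follows from the table they stand in. *Itgam* measured 1.71 FPKM in B6 against 28.1 in MRL/lpr, *Cd177* 0.449 and 48.4, and *Cd68* 7.28 and 28.7. Other defining markers such as *Lyz2*, *Csf1r*, *Adgre1*, *S100a8* and *S100a9* were not in the tables, so their levels are not known here. The part of myeloid cells in the levels of *Msr1*, *Treml4*, *Nod2* and *Tlr5* was not tested. Of the other marker lists, 1 of 10 genes of B and plasma cells (*Irf4*) and 1 of 10 of erythroid cells (*Tfrc*) were among the higher mRNAs. Of 10 genes of CD8 T and NK cells, 0 were among the higher and 1 was among the lower mRNAs (*Klrd1*, 27.0 FPKM in B6 against 6.22 in MRL/lpr). Since the lists differ in length and few of their genes stand in either table, their counts are not compared.

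**Figure D3:**
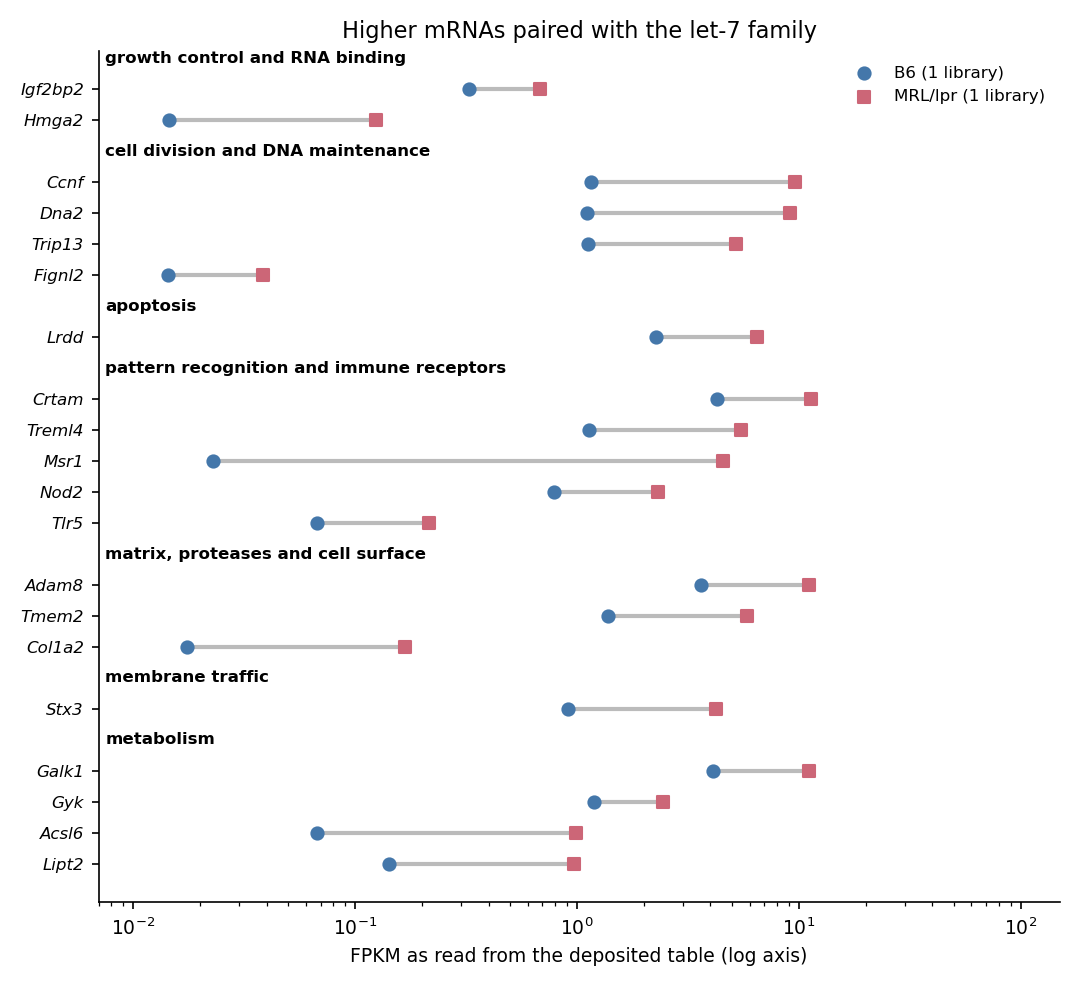
FPKM of 20 of the 22 partner mRNAs (log axis) in the B6 library (circles) and the MRL/lpr library (squares), grouped by role, with 1 library per strain and no error bars. *Msr1* had the widest gap (0.0230 and 4.56 FPKM), and 7 partners (*Hmga2*, *Igf2bp2*, *Col1a2*, *Fignl2*, *Tlr5*, *Acsl6* and *Lipt2*) stayed below 1 FPKM in both.

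At the cell surface and in the matrix, *Adam8*, a metalloprotease of leukocytes, measured 3.64 FPKM in B6 against 11.2 in MRL/lpr (3.06-fold). *Tmem2* (*Cemip2* in RefSeq), a membrane protein linked to hyaluronan breakdown, measured 1.39 FPKM in B6 against 5.86 in MRL/lpr (4.22-fold). *Col1a2*, a chain of type I collagen made by fibroblasts, measured 0.0175 FPKM in B6 against 0.168 in MRL/lpr (9.61-fold). Its fold was among the larger ones of the partners, but its level was low in both libraries. Of 35 matrix and protease genes, 5 were among the higher mRNAs and 0 among the lower (67.5% higher over all listed mRNAs), and *Adam8* and *Col1a2* were the partners among them.

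In membrane traffic, *Stx3*, a SNARE protein of exocytosis, measured 0.915 FPKM in B6 against 4.23 in MRL/lpr (4.63-fold).

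Of the metabolic partners, *Galk1*, the galactokinase, measured 4.10 FPKM in B6 against 11.1 in MRL/lpr (2.70-fold). *Gyk* (*Gk* in RefSeq), the glycerol kinase, measured 1.19 FPKM in B6 against 2.46 in MRL/lpr (2.06-fold), the smallest fold of the 22. *Acsl6*, which activates long-chain fatty acids, measured 0.0677 FPKM in B6 against 0.988 in MRL/lpr (14.6-fold). *Lipt2*, an enzyme of lipoic acid synthesis in mitochondria, measured 0.142 FPKM in B6 against 0.969 in MRL/lpr (6.84-fold). The larger folds of this group thus came from genes that did not reach 1 FPKM in MRL/lpr.

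Level and fold together set how much weight each partner can carry. At least 4-fold and at least 1 FPKM in MRL/lpr were reached by 8 of 22 partners and by 132 of the 440 higher mRNAs. The 8 partners included *Ccnf*, *Dna2*, *Trip13*, *Msr1*, *Treml4*, *Stx3* and *Tmem2*. In B6, 6 of the 22 partners lay below 0.1 FPKM, as did 139 of the 440 higher mRNAs. Among these 139 mRNAs, 13 shared a fold of 2.14 to within 0.1%. In units of 1.07, which is that fold divided by 2, the folds of *Hmga2*, *Col1a2*, *Tlr5* and *Fignl2* were 8, 9, 3 and 2.5. These 4 folds are thus ratios of small whole numbers to within 0.1%. In the same units the folds of *Acsl6* and *Msr1* were 13.67 and 185.9, without a match within 0.1%. The largest MRL/lpr number searched was 40, so a match for *Msr1* could not have been found. For *Acsl6* this limit left only the smallest B6 numbers within reach, so nothing is read from its missing match. The numbers of fragments behind all these folds are not known, because the tables give no depth for the mRNA libraries.

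**Figure D4:**
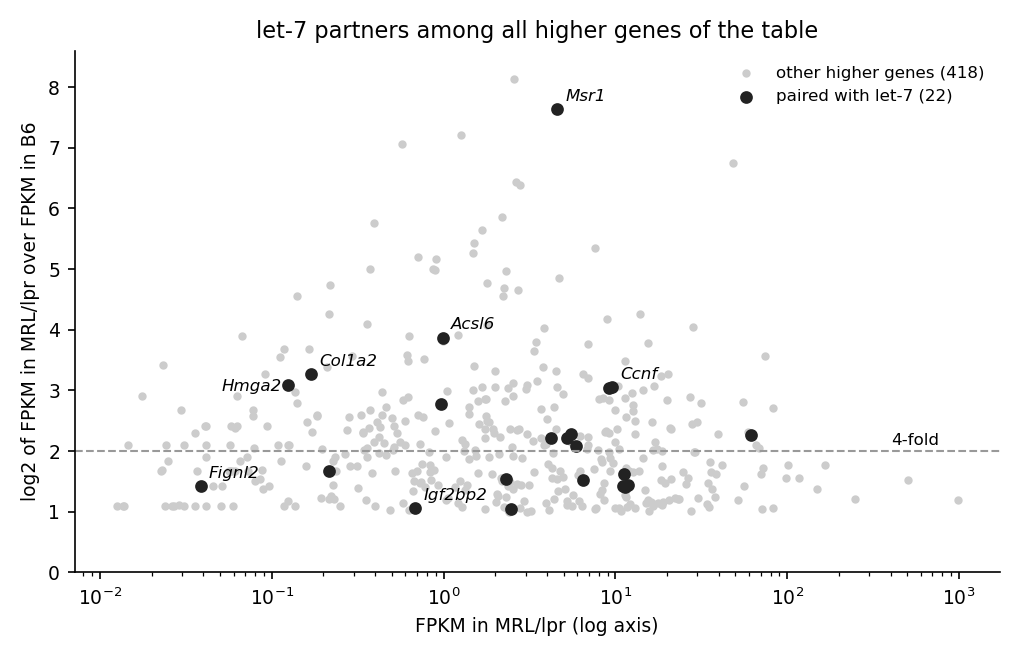
The log2 of FPKM in MRL/lpr over FPKM in B6 against FPKM in MRL/lpr (log axis) for the 22 let-7 partners (black) and the 418 other higher mRNAs (grey), each from 1 library per strain, with a dashed line at 4-fold. The partners spread over the range of the other genes, with 12 of 22 above the line and *Msr1* near the top.

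Of 51 genes known from experiments as let-7 targets, 6 were among the higher mRNAs and 1 among the lower, and with 67.5% of all listed mRNAs higher this count says little about the targets. Of these, 4 were let-7 partners, including *Col1a2*, *Hmga2* and *Igf2bp2*. *Arid3a*, a DNA-binding protein of B cell development, measured 2.58 FPKM in B6 against 10.6 in MRL/lpr but was paired with miR-874-3p. *Olr1*, a scavenger receptor also on the myeloid list, measured 0.00858 FPKM in B6 against 1.27 in MRL/lpr and was paired with miR-200a-3p. *Acvr1c*, an activin receptor, was the gene among the lower mRNAs, at 0.0375 FPKM in B6 against 0.00698 in MRL/lpr. The remaining 44 were in neither table. Of 18 genes of let-7 maturation, such as the *Lin28* genes and *Dicer1*, 0 were in either table. Of 27 genes of RAS and MAP kinase signalling, 3 were among the higher and 2 among the lower mRNAs, and 0 were let-7 partners. Of 63 cytokines, chemokines and their receptors, 10 were among the higher and 3 among the lower mRNAs, and 0 were let-7 partners.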

How the data were processed

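Small RNA and mRNA of splenic CD4+ T cells from B6 and MRL/lpr were sequenced, with 1 library per strain and assay. For each mature miRNA the authors deposited the read count and the RPM, which equals the count over the trimmed reads of the library, and they kept miRNAs with a fold of at least 2 and a summed count of at least 100. For mRNA the authors deposited values called raw, taken here as FPKM because the column names follow Cuffdiff. Deposited columns of the authors' own comparison, which hold fold, log2 fold, test statistic, p-value and q-value, were not used. The aligner, genome build, annotation and miRBase release were not given in the sources used here. The label of the target prediction list is not spelled out in the tables, and the paper names miRDB.

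Folds, counts and intervals were computed with Python 3.11.15, NumPy 2.4.6, SciPy 1.17.1 and pandas 2.3.3. Matplotlib 3.10.9 drew the plots. The share of a miRNA's reads that came from MRL/lpr was given exact 95% Clopper-Pearson limits, which were converted to limits of the fold, and the step was tested on simulated data. Reads are not independent molecules, so intervals cover counting error only. A single read equals 0.0297 RPM for B6 and 0.0334 for MRL/lpr. RPM is not calibrated between miRNAs, and the mRNA depth is unknown. miRNA names and sequences were matched to RefSeq (6 of 6), and the build of the authors' files is not known, so positions are those of RefSeq.

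The members and lists were chosen with earlier results of these data known. The named miRNAs are all listed let-7 names and their listed miR-99/100 and miR-125 neighbours. The named partners are the 10 with the highest MRL/lpr level, the 10 with the largest fold at 1 FPKM or more, the 5 with the most paired miRNAs and those on a gene list. This rule gave 19 of the 22, and *Fignl2*, *Gyk* and *Lipt2* were added. Of the 22 partners, 2 are counted in the summaries but their own values are not reported here. The listed miRNAs nearest to the family in fold were also named. Role groups and the search for ratios of whole numbers were made after the values were seen. Alternatives were added values, minimum levels, a 4-fold threshold, scaling to miRNA totals and partners of the family alone.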

Additional observations from a re-analysis of the deposited data

How the results depend on the processing

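At a 4-fold threshold, the 6 lower members became 1 and the 22 partners became 12. At the 2-fold threshold, 4 of the 6 members stayed lower with 100 RPM added. With 0.1 and 1 FPKM added, 17 and 13 of the 22 partners stayed higher at this threshold. The matching counts over all higher mRNAs were not made, so nothing particular to the partners is read from these counts. The log2 fold of the summed family, -1.47, was -1.73 when scaled to miRNA totals and -1.22 without let-7f-5p, the member with the most reads. The median log2 fold of the partners, 2.14, was 1.53 with 0.1 FPKM added, 1.23 with 1 FPKM added and 2.08 among partners at 1 FPKM or more in MRL/lpr. The medians of all higher mRNAs were 1.48, 0.94 and 1.94 under the same settings. With 1 FPKM added, 4 of the 22 partners stayed at 4-fold or more, as did 10% of all higher mRNAs. The values with 1 FPKM added fell because low genes shrink by construction, so that *Hmga2* went from a log2 fold of 3.10 to 0.15 and *Msr1* from 7.63 to 2.44. The log2 fold of let-7e-5p, -3.47, was -3.01 with 1 RPM added and -1.53 with 10 RPM added. At 10 RPM added the 6 members ranged from -1.58 (let-7f-5p) to -1.11 (let-7a-5p), so let-7e-5p no longer stood apart. No direction reversed under the alternatives run, and none could. Added values, thresholds and choices among members of a list keep the sign, and scaling to miRNA totals lowered the log2 folds further. No paired analysis was possible because the strains have 1 library each. The levels of single libraries, the unknown mRNA depth and the unlisted family members limit what can be read from these values.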

Other observations

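Outside the family, the listed miRNAs whose fold over both libraries was nearest to that of the summed family (2.76-fold lower) were miR-669a-3p and miR-669o-3p, which had identical counts of 203 reads in B6 and 66 in MRL/lpr (2.74-fold lower), and miR-423-5p, with 11087 and 3653 reads (2.70-fold lower). Their distances on the log2 scale were 0.0117, 0.0117 and 0.0309, over 2 libraries only, and nothing is read from this likeness.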
